A study of Mus musculus with 6 samples.

Results

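The sine oculis homeobox genes (Six2, Six4, Six5 and relatives) and the Eya, Dach and Irx genes encode transcription factors and cofactors of the fast fiber program and of tissue patterning. They were followed here in the tibialis anterior (TA) muscle of old mice given BML-260, a small molecule used in the study to inhibit the phosphatase DUSP22. A total of 9 genes were chosen by name (Six2, Six4, Six5, Eya1, Eya3, Eya4, Dach1, Irx3 and Irx5), with results of the BML-260 against vehicle contrast in these same libraries already known. Their differences between the groups are therefore given as a description. Any p-values and intervals printed for these differences are part of that description and are no independent test. Genes that are missing from the TPM tables (transcript abundance scaled for length and library size) were to be skipped, which left 7 of 9: Six4, Six5, Eya1, Eya3, Eya4, Dach1 and Irx3, among 16800 genes with a TPM and 45777 genes in the count table.

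All mice were male C57BL/6J of 24 months by the labels, although the study's text gives a higher age in one place and an age range in another. The vehicle group received DMSO with Tween 80 and the BML-260 group received 5 mg/kg of the compound in addition, by intraperitoneal injection each day for about 1 month. Each group held 3 mice with 1 total RNA library per mouse. There was no young group, and whole TA muscle was sequenced, so that fewer cells of a type and less RNA per cell cannot be told apart.

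Sine oculis factors bind MEF3 sites in muscle promoters, among them the promoter of myogenin. Eya proteins do not bind DNA themselves but are brought to these sites by sine oculis factors, where they act as coactivators, and they also carry a tyrosine phosphatase domain. Dach proteins can bind to the same complexes as corepressors, and sine oculis and Eya proteins together are known for driving the fast and glycolytic genes of fast fibers. The Iroquois factors (Irx) form a separate homeobox family, arranged in clusters of neighboring genes, and are best known for patterning of heart, limb and nervous system.

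The libraries held between 39522890 and 56998875 counts, and the TMM scaling factor was 0.914 to 1.203 with the highest value in vehicle replicate 3. That library stood apart in other ways: its summed TPM of 3 detected adipocyte markers was 26.4, against 1.75 to 3.37 in the other libraries, and that of 4 Schwann markers was 57.7, against 9.33 to 18.1. Summed TPM of 5 macrophage markers was 33.7 to 123 in the vehicle libraries and 25.3 to 30.9 in the BML-260 libraries, so the groups did not overlap. The 5 muscle fiber markers (Acta1, Ttn, Neb, Des and Ckm) summed to between 37760 and 55110 TPM in all 6 libraries. Satellite cell, fibroblast, tendon, mural and endothelial sums overlapped between the groups, and Col1a1, a fibroblast collagen, passed the threshold given below on the lower side (log2 fold change -0.43). The part of these cell types in the results below was not tested.

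The order of the 7 genes by level was the same in every library. By mean TPM over the 6 libraries, Eya4 was at 22.5 ± 3.33 (SD), Six4 at 12.2 ± 1.83, Eya1 at 7.81 ± 0.482, Eya3 at 4.74 ± 0.736, Irx3 at 2.71 ± 0.478, Dach1 at 1.08 ± 0.237 and Six5 at 0.724 ± 0.0597. Each neighboring pair stood in this order in 6 of 6 libraries, also Dach1 above Six5, the closest pair, with a difference of 0.354 ± 0.264 TPM. The exact 2-sided sign-flip test within libraries gave p = 0.03125 for each of the 6 neighboring pairs, which is the smallest value that 6 libraries allow, and 0.03125 after Benjamini-Hochberg adjustment. As the pairs were set by the mean TPM of these same libraries, the p-values add nothing to the 6 of 6. Eya4 lay above 82.7% of the genes with a TPM and Six5 above 22.6%, so the group ran from well expressed to low.

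**Figure D1:**
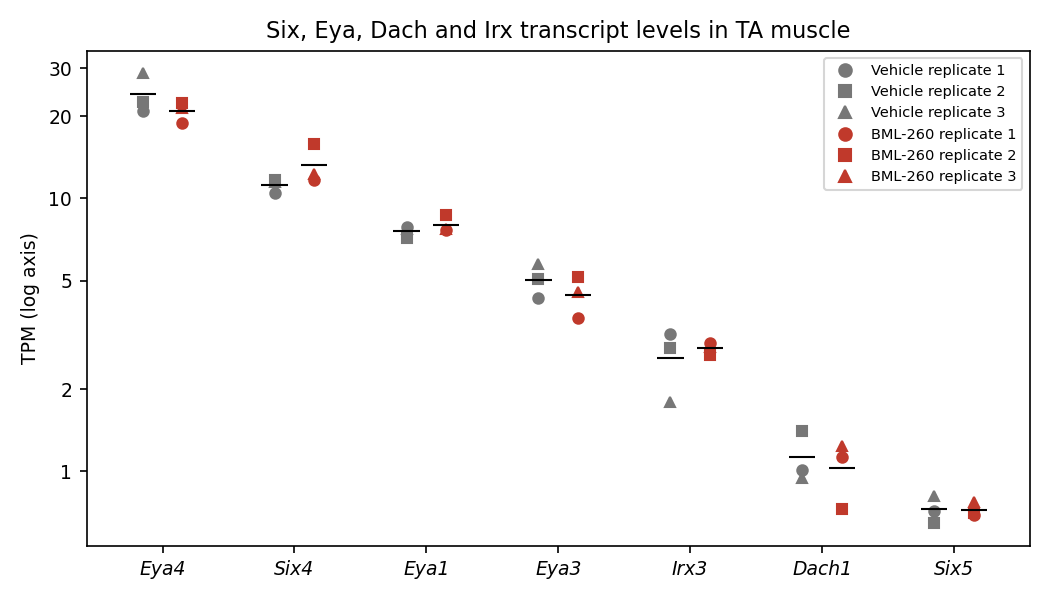
TPM of the 7 regulators in each of the 6 libraries (log axis), with vehicle libraries in gray, BML-260 libraries in red, a marker shape for each replicate number and a bar at the group mean. The order from Eya4 (mean 22.5 TPM) to Six5 (0.724 TPM) is kept in all libraries, and the groups lie over each other for every gene but Six4, where the gap is small.

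Among the 7 regulators, differences between BML-260 and vehicle were small. In edgeR's quasi-likelihood fit across 16188 genes, all 7 passed the filter on low counts. A gene was counted as past the threshold at an unadjusted p under 0.05 together with a fold of 1.3 or more in either direction. None of the 7 was past it, beside 5.75% of all tested genes. The unadjusted p was under 0.05 for 0 of 7 (5.97% of all genes), and the adjusted p was under 0.05 for 0 of 7 and for 0.0% of all genes, while DESeq2 gave an adjusted p under 0.05 for 95 genes. The log2 fold change was above 0 for 4 of 7 (49.5% of all genes), and the median was 0.15, beside -0.0039 over all tested genes. Without vehicle replicate 3 the median of the 7 was -0.097, with 0 of 7 past the threshold.

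Six4 encodes a sine oculis factor of muscle precursors and adult fibers. Of the 7 regulators it differed most between the groups in log2 terms, which describes the contrast the genes were chosen on. Its gene lies on chr12:73099609-73114031 on the minus strand (GRCm38.p6, the assembly of the mm10 build). Of the 2 RefSeq promoter windows, each from 250 bases before to 50 bases after a transcript start, the one at chr12:73113196-73113495 is printed because it held the only MEF3 core of the 8 member windows. It is written 5′ to 3′ along the gene, and the capitals mark that core, TCAGGTT, which reads here from the other strand.
Six4 promoter: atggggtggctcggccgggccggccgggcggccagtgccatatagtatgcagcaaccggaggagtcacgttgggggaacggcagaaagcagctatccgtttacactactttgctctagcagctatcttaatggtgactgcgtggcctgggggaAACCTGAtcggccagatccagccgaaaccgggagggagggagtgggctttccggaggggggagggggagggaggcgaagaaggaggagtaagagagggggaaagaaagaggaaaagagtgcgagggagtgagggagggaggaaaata
The core occurred in 4.07% of the 32851 windows of this length, on either strand, and a match is no evidence of binding.

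The normalized read count of Six4, which is the count divided by DESeq2's size factor, was 1909, 2173 and 1505 in vehicle replicates 1, 2 and 3 and 2333, 2739 and 2103 in BML-260 replicates 1, 2 and 3. Vehicle replicate 3 was the lowest library and BML-260 replicate 2 the highest, and the groups overlapped through vehicle replicate 2 and BML-260 replicate 3. Group means were 1862 ± 336 and 2392 ± 322 (SD, n = 3 each), and the log2 fold change was 0.36 with a standard error of 0.18 and a 95% interval of -0.053 to 0.77. In TPM, Six4 was at 10.5, 11.7 and 11.5 in vehicle and at 11.7, 15.8 and 12.3 in BML-260. Here the groups did not overlap, but the highest vehicle library (11.67) lay just below the lowest BML-260 library (11.70). Six4 was the only one of the 7 without overlap in TPM, beside 9.62% of all genes with a TPM (2.08% with BML-260 as the higher group), and by normalized counts 0 of 7 were without overlap, beside 12.1% of tested genes. Leaving out 1 library at a time moved the log2 fold change between 0.22 (without vehicle replicate 3) and 0.49 (without vehicle replicate 2), and in the latter case Six4 passed the threshold.

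Six5, a sine oculis factor whose human counterpart lies next to the DMPK gene of myotonic dystrophy, was the lowest of the group. Its normalized count was 59.1, 55.9 and 47.9 in vehicle and 62.2, 56.0 and 62.3 in BML-260, and the groups overlapped. In TPM the group means were nearly equal, at 0.725 ± 0.084 in vehicle and 0.723 ± 0.043 in BML-260. The log2 fold change was 0.15 (SE 0.28), or 0.058 without vehicle replicate 3. Raw counts were only 44 to 72 per library, so that counting error alone amounts to 11.8% to 15.1% of a value. That is as large as the spread seen between replicates, with coefficients of variation of 10.7% in vehicle and 6.02% in BML-260.

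Six5 lies at chr7:19094544-19098549 on the plus strand, with 722 bases between it and the end of Dmpk (chr7:19083646-19093821, plus strand), which encodes a kinase abundant in muscle. Dmpk was 86.5 to 134 times as high as Six5 by TPM, and the ratio was highest in vehicle replicate 2. The counts of Six5 were 0.75% to 1.19% of those of Dmpk, and whether reads running past the end of Dmpk were counted for Six5 was not tested. The log2 fold change of Dmpk was -0.14 (SE 0.23), or -0.34 without vehicle replicate 3, and it did not pass the threshold.

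Eya4 encodes the most abundant coactivator of the group and by normalized counts varied least between replicates, though not by TPM. The gene lies on chr10:23102962-23350838 on the minus strand. Its promoter window at chr10:23349894-23350193, written 5′ to 3′ along the gene, is printed for contrast with Six4: it holds no MEF3 core, and the capitals mark its only E-box, the CANNTG site of myogenic factors.
Eya4 promoter: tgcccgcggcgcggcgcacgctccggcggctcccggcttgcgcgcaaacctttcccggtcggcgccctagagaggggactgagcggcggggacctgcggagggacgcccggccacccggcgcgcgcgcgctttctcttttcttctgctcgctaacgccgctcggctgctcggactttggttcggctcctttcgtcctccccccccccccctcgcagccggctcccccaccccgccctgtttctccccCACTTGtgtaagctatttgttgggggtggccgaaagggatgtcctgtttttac
E-boxes occurred in 72.3% of all windows. This Eya4 window had 36 CpG sites and a GC content of 69.3%, and the Six4 window 16 CpG sites and 60.0%, where the medians over all windows were 7 sites and 52.7%.

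Normalized counts of Eya4 were 3286, 3728 and 3215 in vehicle and 3243, 3386 and 3233 in BML-260. Vehicle replicate 2 was the highest library and the other 5 lay close together. The means were 3410 ± 278 and 3287 ± 85.6, and the log2 fold change was -0.056 (SE 0.13), with a 95% interval of -0.36 to 0.25. In TPM the values were 21.0, 22.6 and 28.7 in vehicle and 18.9, 22.4 and 21.5 in BML-260, so vehicle replicate 3 was the highest library on this scale and the lowest by normalized count. The group means in TPM were 24.108 ± 4.0998 and 20.9 ± 1.82.

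Eya1, a coactivator that works with sine oculis factors in fast fibers, had the next level in the family. Its normalized count was 1036, 943 and 704 in vehicle and 1074, 1092 and 978 in BML-260. Vehicle replicate 3 was low, BML-260 replicate 3 lay under vehicle replicate 1, and the groups overlapped. Group means were 894 ± 171 and 1048 ± 61.6, and the log2 fold change was 0.23 (SE 0.17), or 0.076 without vehicle replicate 3. TPM values of Eya1 were close together, at 7.86, 7.19 and 7.75 in vehicle and 7.67, 8.67 and 7.71 in BML-260.

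Eya3, the broadly expressed member of the family, had normalized counts of 642, 794 and 621 in vehicle and 593, 738 and 659 in BML-260. Replicate 2 was the highest library in both groups, and the groups overlapped. The log2 fold change of Eya3 was -0.051 (SE 0.16), with a 95% interval of -0.42 to 0.32. Its TPM was 5.04 ± 0.716 in vehicle and 4.44 ± 0.758 in BML-260.

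Of the summed TPM of Eya1, Eya3 and Eya4, Eya4 made up 65.4% ± 2.43 in vehicle and 62.7% ± 0.949 in BML-260. Eya1 made up 20.9% ± 2.69 and 24.1% ± 1.29, and Eya3 13.7% ± 0.735 and 13.2% ± 1.09. All 3 shares overlapped between the groups. Eya2, which was not among the genes chosen, is not part of this sum.

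**Figure D2:**
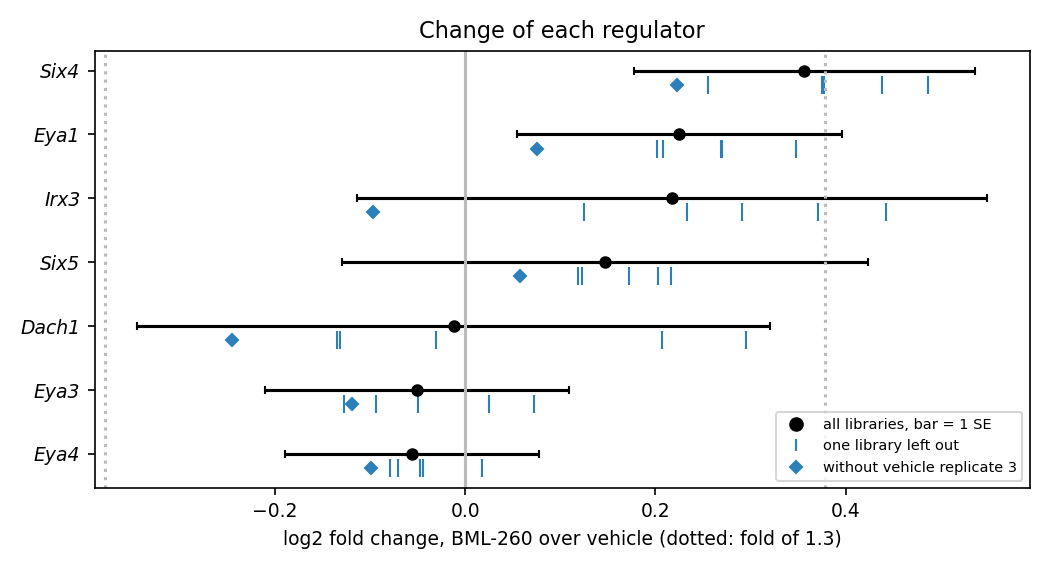
Log2 fold change (BML-260 over vehicle, edgeR) of the 7 regulators, with black points for the estimate from all libraries, bars of 1 standard error, blue ticks for the fits that leave out 1 library and a blue diamond for the fit without vehicle replicate 3. Dotted lines mark a fold of 1.3 in either direction, and the estimates run from -0.056 (Eya4) to 0.36 (Six4).

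Dach1 encodes a corepressor of sine oculis target genes. It varied most among the BML-260 libraries. Normalized counts were 157, 225 and 106 in vehicle and 187, 110 and 187 in BML-260, so each group held 1 low library, and the vehicle range enclosed the BML-260 range. The means were 163 ± 59.5 and 161 ± 44.4, and the log2 fold change was -0.012 (SE 0.33). It moved from -0.25 without vehicle replicate 3 to 0.29 without vehicle replicate 2. TPM of Dach1 was 1.125 ± 0.249 in vehicle and 1.03 ± 0.269 in BML-260.

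Irx3 encodes an Iroquois homeobox factor. Its normalized count was 212, 198 and 86.8 in vehicle and 216, 174 and 187 in BML-260. Vehicle replicate 3 lay far below the other 5 libraries, which were between 174 and 216. The means were 166 ± 68.5 and 192 ± 21.5, and the log2 fold change was 0.22 (SE 0.33), or -0.097 without vehicle replicate 3. In TPM Irx3 was at 3.18, 2.83 and 1.80 in vehicle and at 2.95, 2.67 and 2.86 in BML-260, with the same library low. An antisense gene, Irx3os, overlaps Irx3, and as the strand setting of the counting is not given, reads of the pair could have been mixed.

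By normalized counts, the spread of the 7 regulators between replicates was wider in vehicle. The coefficient of variation of normalized counts was 8.16% to 41.4% in vehicle and 2.60% to 27.5% in BML-260, and it was higher in vehicle for 7 of 7, beside 70.1% of all tested genes. By TPM it was higher in BML-260 for 4 of 7, so this too depended on the scale. By normalized counts vehicle replicate 3 was the lowest of the 6 libraries for 6 of 7 regulators, beside 31.1% of all tested genes. By TPM it was the lowest for 1 of 7 and the highest for 3 of 7, so its place was not the same on both scales.

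Ratios between regulators within a library do not depend on the scaling of that library. Of the 21 ratios of TPM between members, 2 did not overlap between the groups (9.52%), and both include Six4. The ratio of Six4 to Eya4 was 0.499, 0.516 and 0.400 in vehicle and 0.620, 0.704 and 0.571 in BML-260. The ratio of Six4 to Eya3 was 2.42, 2.31 and 2.00 in vehicle and 3.215, 3.06 and 2.705 in BML-260. These pairs were singled out after their values were seen. Among all genes with a TPM, the ratio to Eya4 did not overlap for 11.7% (6.98% with BML-260 as the higher group), so a share of this size is near the background and is no result about the members.

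**Figure D3:**
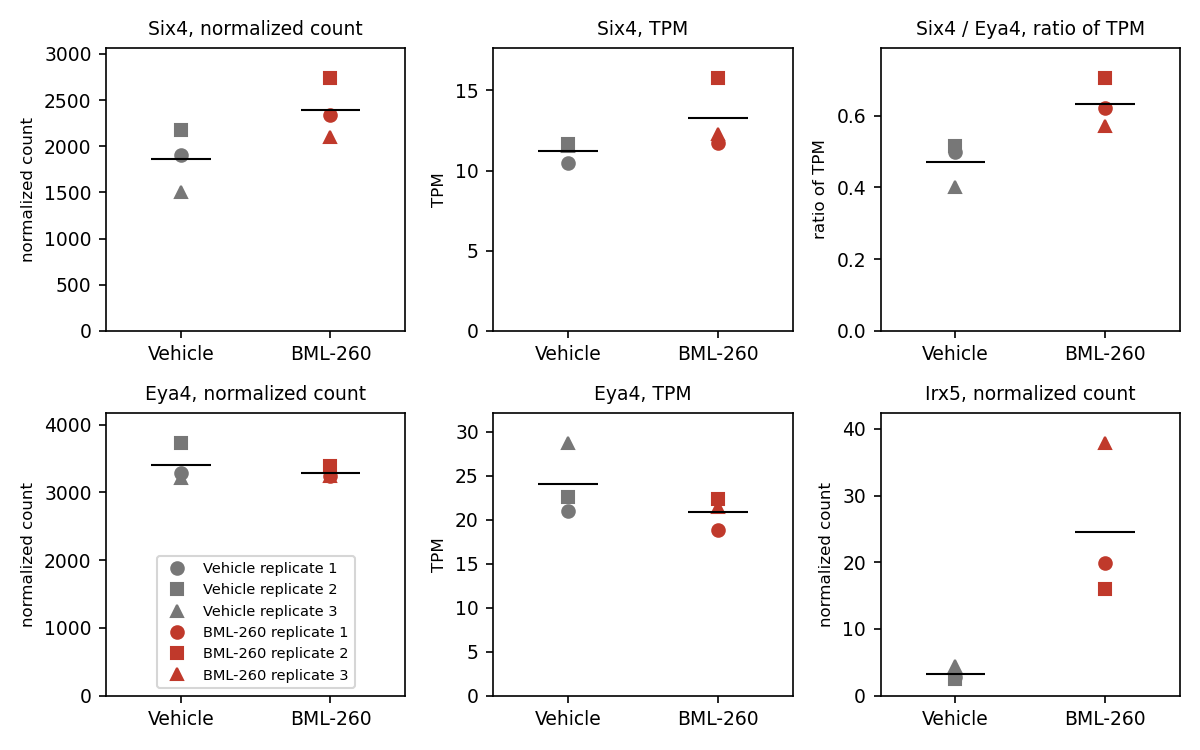
Six4, Eya4, their ratio of TPM, and Irx5 in the 6 libraries, on linear axes from 0, with 1 point per library and a horizontal bar at the group mean (n = 3). The ratio lies at 0.400 to 0.516 in vehicle and 0.571 to 0.704 in BML-260, the Eya4 points overlap, and Irx5 is at 2.54 to 4.49 normalized counts in vehicle and 16.0 to 37.9 in BML-260.

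Six2 and Irx5 had no TPM and were found at low counts only. Irx5, the cluster neighbor of Irx3, had raw counts of 3, 2 and 6 in vehicle and 23, 16 and 31 in BML-260. Every BML-260 library was above every vehicle library, in normalized counts 2.86, 2.54 and 4.49 against 19.9, 16.0 and 37.9, as in 5.43% of tested genes. The log2 fold change was 2.81 (SE 0.61), past the threshold that 0.896% of tested genes passed in this direction, and between 2.37 and 3.10 with 1 library left out. As the gene reached the fit through its counts in the BML-260 group and was listed with this contrast known, that is a description. The summed counts were 11 and 70, a ratio of 6.79 after scaling, with an exact 95% interval of 3.57 to 14.2 for counting error only. Irx5 (chr8:92357796-92361456, plus strand) and Irx3 (chr8:91798511-91801654, minus strand) are 556141 bases apart, and the log2 fold change of Irx3 was 0.22. Fto, a gene next to Irx3 known for an RNA demethylase, had normalized counts of 2842, 2896 and 2837 in vehicle and 2981, 3363 and 3676 in BML-260, without overlap, and a log2 fold change of 0.22 (SE 0.14) that did not pass the threshold. By TPM the groups overlapped for Fto, at 28.6, 27.8 and 39.35 in vehicle and 27.3, 34.6 and 38.1 in BML-260. Rpgrip1l, on the far side of Fto, was at 0.23 (SE 0.35), and Mnat1, a genomic neighbor of Six4, at -0.16 (SE 0.16). Without vehicle replicate 3 these were -0.076 and -0.012.

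Six2, a sine oculis factor known from kidney progenitors and connective tissue, had raw counts of 4, 9 and 50 in vehicle and 23, 7 and 17 in BML-260. The highest count was in vehicle replicate 3, the library with high adipocyte and Schwann markers, and the groups overlapped. Its log2 fold change was -0.18 (SE 0.80), and it was 1.08 without that library.

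Relatives of these genes that were not among those chosen gave no call. Eya2, another Eya coactivator, had normalized counts of 76.3, 121 and 177 in vehicle and 101, 96.0 and 94.1 in BML-260, with a log2 fold change of -0.37 (SE 0.32). Dach2, the paralog of Dach1 known from denervated muscle, was at 468, 416 and 266 in vehicle and 482, 613 and 308 in BML-260, with a log2 fold change of 0.29 (SE 0.29). For both, the groups overlapped. Pax3 and Pax7, the paired-box factors upstream of sine oculis and Eya genes in muscle precursors, had log2 fold changes of 0.81 (SE 0.54) and 0.018 (SE 0.50). Of these 4 relatives, 0 passed the threshold. Without vehicle replicate 3 the values were -0.018 for Eya2, 0.075 for Dach2, 0.41 for Pax3 and -0.32 for Pax7. Six3, Six6, Irx4 and Irx6 had a count of 0 in all libraries, and Irx1 had 2 counts in BML-260 replicate 1 and 0 elsewhere. Irx2, below the filter, had 3, 4 and 7 counts in vehicle and 0 in each BML-260 library, where a sum of 0 allows up to 3 counts.

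Other transcription factors and histone deacetylases tied to fiber type were mostly above 0 without passing the threshold: 8 of 9 had a positive log2 fold change, with a median of 0.26, or 0.10 without vehicle replicate 3. Mafa, a large Maf factor of fast IIb fibers, passed the threshold and was the only 1 of 9 to do so. Of all tested genes, 5.75% passed it, and 0.896% on the higher side. Its normalized count was 821, 685 and 553 in vehicle and 1071, 878 and 1463 in BML-260. The groups did not overlap, as in 5.43% of tested genes with BML-260 as the higher group. The log2 fold change was 0.73 (SE 0.23, adjusted p = 0.70 by edgeR with Benjamini-Hochberg). Without vehicle replicate 3 it was 0.59. Sox6, the repressor of slow genes, was at 0.28 and Tbx15, a T-box factor of glycolytic fibers, at 0.26, and Hdac4, a deacetylase of the denervation response, was the one below 0, at -0.33. Without vehicle replicate 3 Hdac4 was at -0.58 and passed the threshold on the lower side, as did 482 of 16502 tested genes.

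Genes of the fast and glycolytic program, a general list and not a set of shown sine oculis or Eya targets, gave no call. Of 20 genes, 18 had a log2 fold change above 0 and 0 passed the threshold. The median was 0.30, and 0.080 without vehicle replicate 3. Myh1 and Myh2, the IIx and IIa myosins, were the pair below 0 (-0.18 and -0.25). Myh4, the fast IIb myosin, was at 0.48 (SE 0.38), Pvalb, the calcium buffer of fast fibers, at 0.66 (SE 0.57), and Pfkm, the muscle phosphofructokinase, at 0.45 (SE 0.34). Without vehicle replicate 3 they were at 0.24, 0.20 and 0.14, and Myh2 at 0.40.

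Slow fiber genes were lower in BML-260 for 10 of 12, with a median of -0.99, but this rests on vehicle replicate 3. Tnni1, slow troponin I (-1.57), Atp2a2, the slow calcium pump (-0.96), and Myoz2, a protein of the Z-disc in slow fibers (-2.09), passed the threshold on the lower side. Of all tested genes, 4.86% passed on that side. The normalized count of Myoz2 was 12328 in vehicle replicate 3, against 827 to 1339 in the other 5 libraries. Without that library the median was 0.17, and 5 of 12 genes passed on the higher side and 1 on the lower side. Of the 16502 genes tested without it, 175 passed on the higher side and 482 on the lower side. The log2 fold changes were then -0.63 for Tnni1, -0.38 for Atp2a2 and 0.18 for Myoz2.

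Myogenic and denervation genes, among them known sine oculis targets, were lower in BML-260, by more than any of the 7 regulators differed for most of the list. All 10 tested genes had a log2 fold change below 0, and 7 fell past the threshold, which 4.86% of all genes did on this side. The list was chosen with earlier results of these data known, so its share is a description and no test of the list. The median was -1.42, and -1.42 without vehicle replicate 3, where 8 of 10 passed on the lower side, beside 482 of 16502 tested genes. Myog, the myogenic factor with a MEF3 site in its promoter, had a log2 fold change of -1.91 (SE 0.51), and its normalized counts of 331, 463 and 1323 in vehicle all lay above those of 136, 159 and 271 in BML-260. Without vehicle replicate 3 the value of Myog was -1.08, and Myf5, which did not pass, turned from -0.20 to 0.070. Myod1 was at -0.47, Myf6 at -1.21, Chrna1, a subunit of the acetylcholine receptor, at -1.50, and Ncam1, an adhesion molecule of denervated fibers, at -1.34. Runx1 (-2.57) and Gadd45a (-2.02), both known to be induced by denervation, also passed. The adjusted p of these 7 genes was between 0.55 and 0.79 by edgeR. The macrophage marker sum was lower in the same direction: Adgre1, Csf1r, C1qa and Mrc1, 4 of 5 markers, passed the threshold on the lower side (-0.86 to -1.40). These 4 also passed without vehicle replicate 3, but C1qa was then at -0.67 and Mrc1 at -0.57, and the median of the markers went from -1.08 to -0.61. Cd68, the remaining marker, was at 0.0018 with overlapping groups, and at 0.39 without that library.

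**Figure D4:**
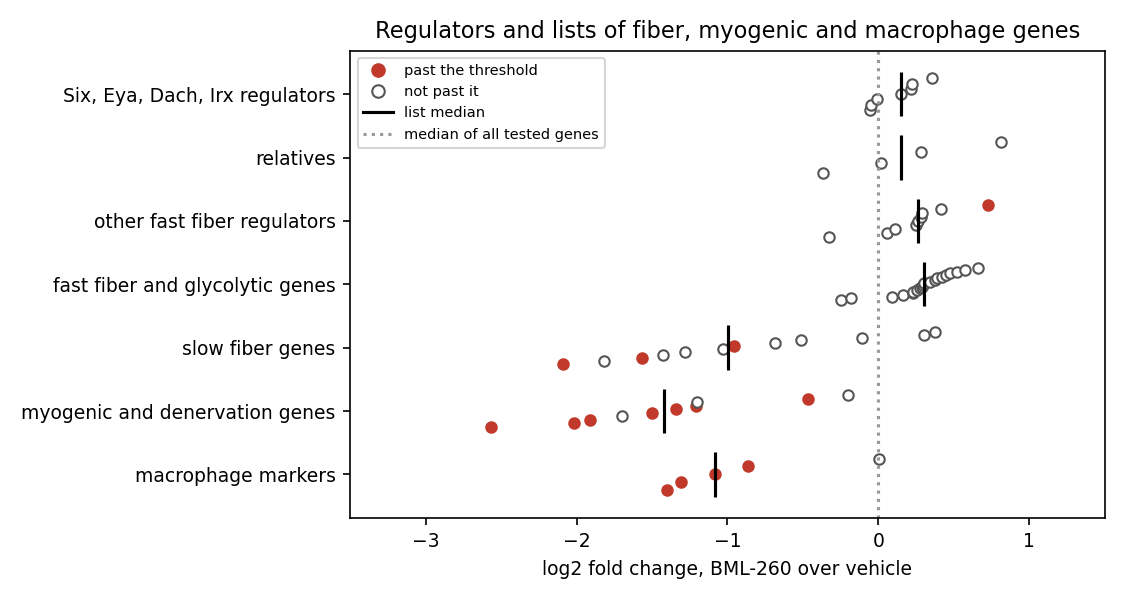
Log2 fold change (BML-260 over vehicle) of each gene in 7 lists, with filled points for genes past the threshold, a black line at the median of each list and a dotted line at the median of all tested genes. The regulators cluster around 0 (median 0.15), the slow fiber genes reach to -2.09 with a median of -0.99, and the myogenic and denervation genes all lie below 0 (median -1.42).

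The genes most like each regulator in pattern were found by the root mean square difference of centered log2 normalized counts over the 6 libraries. They were Wwp1 and Mtfmt for Six4 (0.0453 and 0.0542), Dmac2 and Pitpna for Eya1 (0.0239 and 0.0309), Git2 and Utp25 for Eya3 (0.0442 and 0.0458), and Nsf and Fam98a for Eya4 (0.026 and 0.036). For Six5 they were Ldlrad4 and Ncoa3 (0.0263 and 0.0311), for Irx3 Ndufa8 and Pgk1 (0.033 and 0.0559), and for Dach1 Podxl and BC048403 (0.0957 and 0.0958). Within the group, Eya3 and Eya4 were the closest pair (0.0862), then Six5 and Eya1 (0.129) and Six4 and Eya1 (0.134), while Dach1 was far from all others (0.332 to Six5, its nearest). Eya4 and Six5 varied little, with distances from their own mean of 0.0743 and 0.127, less than to their nearest member, so these distances show no shared pattern. These are distances over 6 libraries that share their scaling, and other genes were closer to each regulator than any member was.

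The promoter windows of the other regulators held few of the sites searched. The letters searched on both strands were CANNTG (E-box), TCAGGTT (MEF3 core), TGATAC (a core bound by sine oculis factors) and ACANNTGT (an Iroquois site, which overlaps the E-box letters), and the last of these was in 7.38% of all windows and TGATAC in 5.46%. The 8 windows cover 6 of 7 regulators. Eya3 held 1 E-box and no other match, and Six5, Irx3 and Dach1 held none of the 4 motifs. The GC content was 54.0% to 69.3% over these windows and CpG sites numbered 13 to 36, above the medians of all windows.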

How the data were processed

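RNA-seq was made from TA muscle of 6 mice. Per the labels, stranded total RNA libraries were prepared, and the submitters' processing notes name StringTie 2.1.3b, HISAT2 2.1.0, Trimmomatic 0.38, Bowtie2 2.3.4.1 and mm10. The authors deposited raw counts per gene, without normalization, in 1 table, and TPM per library, scaled for length and library total. The annotation release and the strand setting are not given in the sources used here, so reads of overlapping or similar genes may have been split.

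Genes were joined by gene identifier. Counts were filtered by filterByExpr, scaled by TMM and tested with edgeR 4.0.16 (quasi-likelihood, Benjamini-Hochberg) in R 4.3.3, and the fit was tested on simulated data. Normalized counts are counts over the size factors of DESeq2 1.42.0. Neighbors in the order of TPM were compared by exact sign-flip tests in scipy 1.17.1. The alternatives were other scalings and filters, a replicate block, DESeq2 with and without apeglm 1.24.0, limma 3.58.1 (voom with quality weights, and a trend fit on log2 TPM after adding 1 or 0.1), the robust fit, and leaving out each library. Replicates are mice, as far as the labels say.

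The members and lists were chosen with earlier results of these data known. Named were all members, tested relatives, Dmpk, and of each other gene list, marker lists aside, every gene past the threshold or otherwise the 3 with the smallest p, plus the 2 genes most like each member. Other genes (Sox6, Tbx15, Hdac4, Myh1, Myh2, Myf5, Col1a1 and macrophage markers) and the ratios to Six4 were picked after their values were seen. Some genes are not reported here, and the list tallies leave them out. Promoters are from RefSeq (GRCm38.p6), and Eya1 has no window there.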

Additional observations from a re-analysis of the deposited data

How the results depend on the processing

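The order by TPM kept 6 of 6 neighboring pairs, but as every library holds this order, leaving out a library or taking log2(TPM + 0.1) could not have changed it. The count of genes past the threshold was 931, and it was 1416 without a filter, 113 with apeglm, 446 with limma on log2(TPM + 1), and 503 (without BML-260 replicate 2) to 2223 (without vehicle replicate 1) with 1 library left out. On the TPM scales the median of all genes shifted to -0.089 (pseudocount 1) and -0.14 (pseudocount 0.1). The number of regulators past the threshold was 0 to 1 with 1 library left out, the 1 being Six4 without vehicle replicate 2, and 0 in the other alternatives. The median of the 7 regulators ranged from -0.097 (without vehicle replicate 3) to 0.27 (without vehicle replicate 2), and was -0.00086 with limma on log2(TPM + 1) and above 0 in the rest. The slow fiber median ranged from -1.37 (without vehicle replicate 1) to 0.17 (without vehicle replicate 3), and was -0.00035 with apeglm and 0.0051 with voom. The fast fiber median was 0.080 to 0.52 with 1 library left out. The cause of these shifts was not tested. Over 17 alternatives each, the log2 fold change of Six4 stayed above 0 (0.0025 to 0.49) and Eya1 changed sign in 0, Six5, Eya4 and Irx3 in 1, Eya3 in 2 and Dach1 in 3. With the replicate number as a block, the replicate block gave 1057 genes past the threshold, a median of 0.15 for the regulators, -0.33 for the slow fiber genes and a log2 fold change of 0.018 for Dach1. Six4 was at 0.37 there, with an adjusted p = 0.68 by edgeR. Its unadjusted p was under 0.05 with the block, but its fold was under 1.3. The labels say nothing of what a shared number means, and deviations of same-numbered libraries correlated at 0.162, 0.0541 and 0.110, with every library correlating best with its own number. With 3 mice a group and few counts, standard errors were 0.28 for Six5, 0.61 for Irx5 and 0.80 for Six2.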
